A study of Mus musculus with 8 samples.

Results

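The change in gene expression that Mcl1 knock-out (KO) thymic epithelium shared between its cortical and medullary cells was measured against wild-type (WT) cells. RNA from C57BL/6 mice was sequenced in 8 libraries. Cortical thymic epithelial cells (cTECs) gave 4 WT libraries and 1 KO library, and medullary thymic epithelial cells (mTECs) gave 2 and 1. A gene was counted as shared where the KO cTEC library lay above all 4 WT cTEC libraries and the KO mTEC library above both WT mTEC libraries, or below them in both. By this rule 6583 (24.2%) of the 27179 genes in the deposited tables were shared, 3188 higher and 3395 lower in KO. The rule is a description and not a test. With so few libraries, genes without a KO effect also meet it, and how many do was not estimated. The KO was tested with population as an additive term, so that a KO effect unequal in cTECs and mTECs adds to the error. Per the series' design text replicates were biological, but the labels do not tie them to separate animals, and p-values measure the spread between these libraries. The labels give no age, no deleting Cre or promoter and no purification method, and whether the 2 KO libraries share mice is not stated.

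Thymic epithelium builds the scaffold on which T cells develop. Cortical cells drive T-lineage commitment and positive selection through Notch ligands, cytokines and a specialised proteasome, and medullary cells display tissue-restricted self antigens and attract thymocytes with chemokines. MCL-1 is a short-lived member of the BCL-2 family that holds pro-apoptotic partners at the outer mitochondrial membrane and keeps cells alive. It is also known to act inside mitochondria, on respiration and on the oxidation of long-chain fatty acids.

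Mcl1 itself, on mm10 Entrez 17210, chromosome 3, 95656944 to 95663179, was almost absent from the KO cTEC library and only reduced in the KO mTEC library. Its level was 228, 302, 259 and 241 CPM in WT cTEC libraries 1 to 4, 8.23 CPM in KO cTEC, 113 and 203 CPM in WT mTEC libraries 1 and 2, and 78.7 CPM in KO mTEC, where CPM is counts per 1000000 after scaling between libraries. Both KO libraries lay below their WT libraries, at 0.0319 times the WT mean in cTECs and 0.498 times in mTECs. The shared log2 change was -2.54 ± 0.95 (SE; adjusted p = 0.226) and did not pass the threshold of 0.05. The drop differed in size between populations, with an mTEC effect minus cTEC effect of 3.96 ± 0.50 log2 units (SE; adjusted p = 0.00277) on the log2 scale. The KO libraries thus differed in how much Mcl1 RNA remained.

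Libraries held 11516780 (KO mTEC) to 19171953 counts (WT mTEC library 1), and 17800 to 22708 genes had a count. The cTEC libraries did not hold cortical transcripts alone. Summed over 16 thymic tuft cell markers, a chemosensory medullary type, the level was 1895 to 2877 CPM in WT cTECs, 48.4 in KO cTEC, 1378 and 1542 in WT mTECs and 1259 in KO mTEC, and Chat, Gnat3, Hepacam2, Rgs13 and Trpm5 were at 0 in KO cTEC. Mature mTEC markers summed to 1157 to 1749.7 CPM in WT cTECs, 501 in KO cTEC, 3357 and 3944 in WT mTECs and 3680.0 in KO mTEC. Markers of fibroblasts summed to 775 to 995 CPM in WT cTECs, 1152 in KO cTEC, 259 and 212 in WT mTECs and 1249.5 in KO mTEC, and those of erythroid cells to 44.2 to 134 CPM in WT cTECs, 647 in KO cTEC, 144 and 100.5 in WT mTECs and 1569.8 in KO mTEC. Immediate-early genes averaged a log2(CPM + 1) of 6.27 in WT cTEC library 1 and 8.16 to 8.55 in libraries 2 to 4, against 6.67 in KO cTEC. In such bulk libraries, fewer cells of a type and less RNA per cell cannot be told apart.

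Of the 18163 genes that passed the filter on low counts (1 CPM or more in 2 or more libraries), 3065 (16.9%) lay above WT in both populations and 3208 (17.7%) below, while 310 shared genes fell under the filter. A further 2843 genes (15.7%) lay beyond WT in both populations but in opposite directions, 1282 of them higher in KO cTEC and lower in KO mTEC. The shares of 16.9% above and 17.7% below are the background for every gene list that follows. The additive fit called 37 genes at an adjusted p under 0.05, 33 higher (0.182% of those tested) and 4 lower (0.022%), and all 37 were shared genes. At an unadjusted p under 0.05 the counts were 1873 higher and 1496 lower. Across all tested genes the KO effect in cTECs and that in mTECs, which have no library in common, correlated with a Pearson r of 0.175 and a Spearman rho of 0.272. These are descriptions across genes, which are not independent replicates and share the scaling of their libraries. The median log2 change of all tested genes was -0.12 in the additive fit, -0.14 in cTECs and -0.03 in mTECs.

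**Figure D1:**
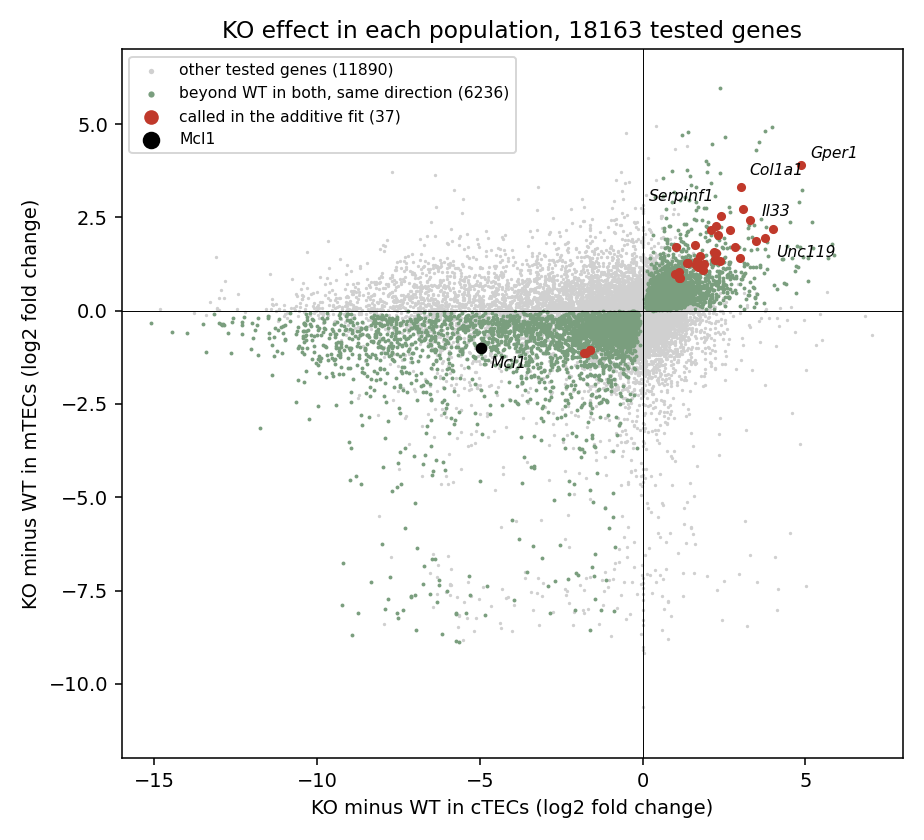
KO minus WT log2 fold change in mTECs (vertical axis) against that in cTECs (horizontal axis) for the 18163 tested genes, 1 point each. Grey points are genes that are not shared, green points the 6236 shared genes without a call, and red points the 37 called genes, which lie between 0.99 and 4.87 in cTECs when higher and between -1.80 and -1.60 when lower.

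The called genes that were higher in KO changed by 0.98 to 4.47 on the log2 scale, with a median of 1.94. Taken alone, their median was 2.23 in cTECs and 1.54 in mTECs. The 4 lower ones changed by -1.48 to -1.35, with a median of -1.68 in cTECs and -1.10 in mTECs.

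Serpinf1, Abat, Il33 and Gper1 were called, and each was several times higher in both KO libraries than in WT. The calls are for both populations together. The mTEC effect alone reached a call for none of the 37 called genes, these included. It rests on 1 KO library and 2 WT libraries. Serpinf1 (Entrez 20317, chromosome 11, 75410029 to 75422623) encodes pigment epithelium-derived factor, a secreted serpin that inhibits vessel growth and does not act as a protease inhibitor. It stood at 85.7, 42.9, 71.2 and 56.9 CPM in WT cTEC libraries 1 to 4, 541 CPM in KO cTEC, 8.09 and 8.08 CPM in WT mTEC libraries 1 and 2, and 53.5 CPM in KO mTEC. The KO libraries were at 8.44 times the WT mean in cTECs and 6.62 times in mTECs. The log2 change was 2.92 ± 0.23 (SE; adjusted p = 0.00876).

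Abat (Entrez 268860, chromosome 16, 8513429 to 8621568) encodes GABA transaminase, the mitochondrial enzyme that breaks down the transmitter GABA. Its level was 57.8, 44.0, 56.1 and 34.4 CPM in WT cTEC libraries 1 to 4, 258 CPM in KO cTEC, 3.30 and 2.64 CPM in WT mTEC libraries 1 and 2, and 17.3 CPM in KO mTEC. Both KO libraries were high, at 5.37 times the WT mean in cTECs and 5.81 times in mTECs, with a log2 change of 2.47 ± 0.20 (SE; adjusted p = 0.00876). In separate populations the changes were 2.42 ± 0.26 in cTECs and 2.54 ± 0.35 in mTECs, and their difference was 0.11 ± 0.45 log2 units (SE; adjusted p = 0.937). Among 22 tested genes of GABA synthesis, breakdown, transport and reception, Abat was the 1 gene called, and the median was -0.83. Of the 22, 3 (13.6%) lay above WT in both populations and 4 (18.2%) below, against 16.9% and 17.7% of all tested genes. Gabrp, a GABA receptor subunit, ran from 14.1 to 47.8 CPM in WT cTECs and 5.40 in KO cTEC, and from 26.2 to 36.5 CPM in WT mTECs against 16.5 in KO mTEC, with a log2 value of -1.59 ± 0.55 (SE; adjusted p = 0.194).

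Il33 (Entrez 77125, chromosome 19, 29925113 to 29960718) encodes interleukin-33, a nuclear cytokine of the IL-1 family that is released from damaged barrier cells. It measured 53.3, 55.7, 79.8 and 82.5 CPM in WT cTEC libraries 1 to 4, 665 CPM in KO cTEC, 11 and 5.34 CPM in WT mTEC libraries 1 and 2, and 44.0 CPM in KO mTEC. KO stood at 9.80 times the WT mean in cTECs and 5.39 times in mTECs, a log2 change of 2.94 ± 0.29 (SE; adjusted p = 0.015). Its family did not lie on one side of WT. Of 6 tested, Il33 was the 1 (16.7%) above WT in both populations and 3 (50%) lay below. Over all tested genes the shares were 16.9% and 17.7%. Il1a and Il1b, the classical inflammatory pair, were low throughout. Il1b ran from 1.78 to 8.25 CPM in WT cTECs and 0.257 in KO cTEC, and from 2.38 to 4.02 CPM in WT mTECs against 1.17 in KO mTEC, with -2.55 ± 1.02 log2 units (SE; adjusted p = 0.237), and Il1a was at 0 in KO cTEC. Il1rn, the receptor antagonist, ran from 68.9 to 109 CPM in WT cTECs and 1.03 in KO cTEC, and from 268 to 286 CPM in WT mTECs against 224 in KO mTEC. None of the 14 tested IL-1 family receptors and adaptors lay above WT in both populations, 5 (35.7%) lay below, and none was called.

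Gper1 (Entrez 76854, chromosome 5, 139423150 to 139427800), a G protein-coupled receptor for oestrogen, had the largest change of the called genes. It was low in WT, with 3.64, 0.738, 2.66 and 3.40 CPM in WT cTEC libraries 1 to 4, 76.8 CPM in KO cTEC, 1.32 and 1.64 CPM in WT mTEC libraries 1 and 2, and 22.1 CPM in KO mTEC, and the KO libraries held 1195 and 245 counts against 10 to 62 counts in the 6 WT libraries. KO was at 29.4 times the WT mean in cTECs and 15.0 times in mTECs, and the log2 change was 4.47 ± 0.47 (SE; adjusted p = 0.015). Of 12 tested oestrogen and steroid receptor genes, 2 (16.7%) lay above WT in both populations, 2 (16.7%) below, and Gper1 was the 1 gene called. These shares are near the 16.9% and 17.7% of all tested genes.

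**Figure D2:**
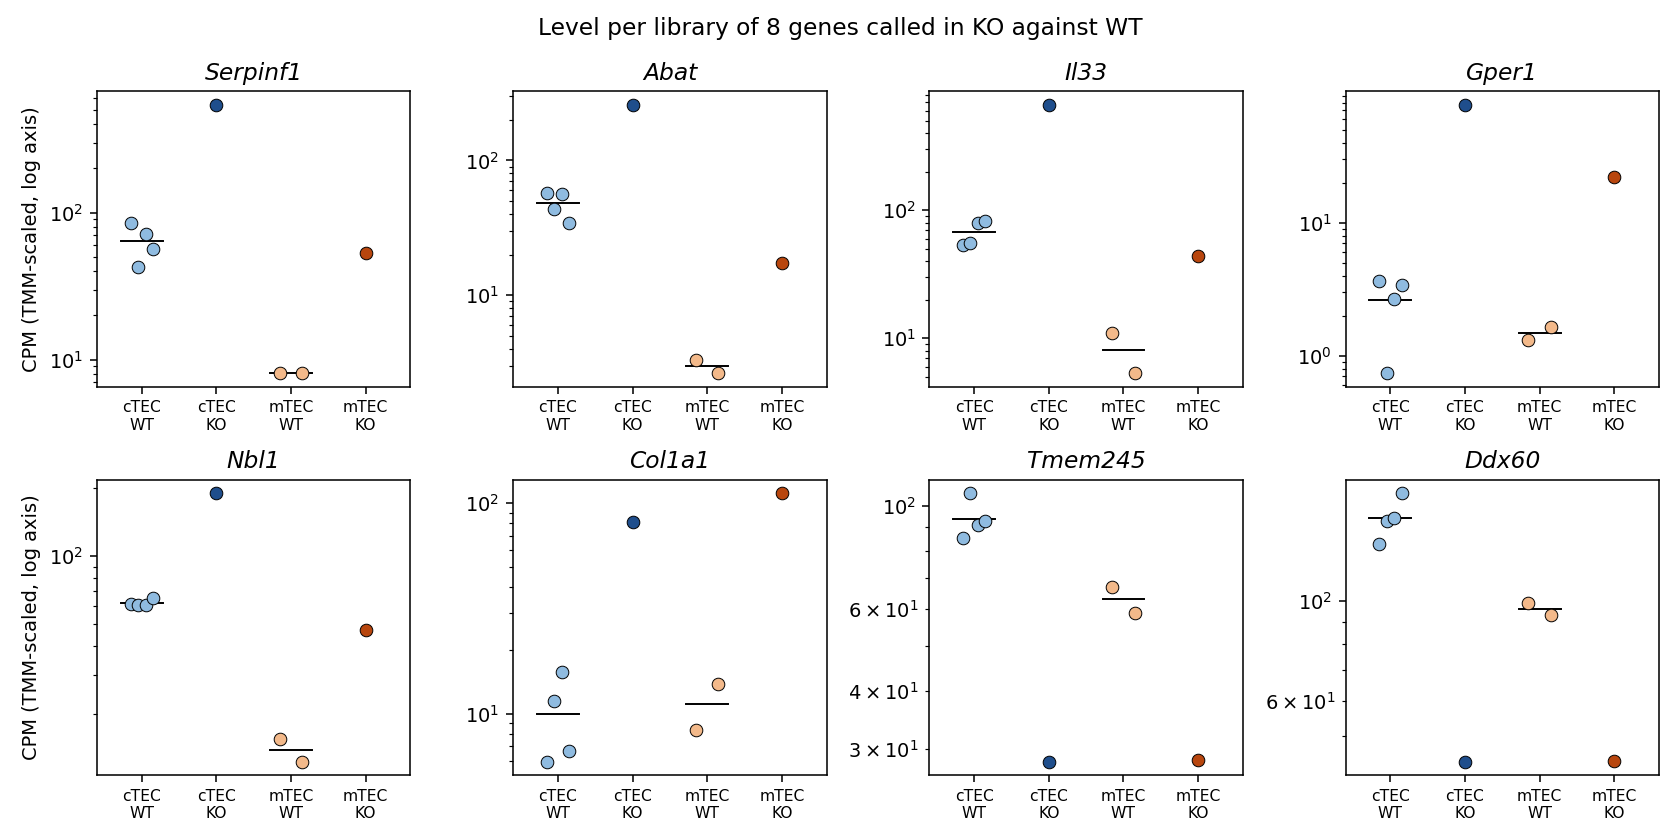
Level per library (CPM, log axis) of 8 called genes in WT cTECs (4 libraries), KO cTEC (1), WT mTECs (2) and KO mTEC (1). Each point is a library and each bar a WT mean, and the KO points lie above all WT points of their population for 6 genes and below them for Tmem245 and Ddx60.

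Promoter sequences are shown for the 3 of these 4 genes with a window in the table of RefSeq promoters used here (GRCm38.p6, the assembly of mm10). For each of them, both KO libraries lay above every WT library of their population. Each window runs from 250 bases before to 50 bases after an annotated start, 5′ to 3′ on the gene's strand. Capitals mark matches, on either strand, to 6 motifs: TATAAA (the TATA box), CCAAT (the CCAAT box), GGGCGG (the GC box), CACGTG (an E-box), TGACGTCA (the cyclic AMP response element) and TGAGTCA (the AP-1 site). No motif holds another. The windows are chr11:75422574-75422873 on the minus strand for Serpinf1, chr5:139422929-139423228 on the plus strand for Gper1, and chr19:29924863-29925162 and chr19:29945540-29945839 on the plus strand for the 2 starts of Il33.
Serpinf1: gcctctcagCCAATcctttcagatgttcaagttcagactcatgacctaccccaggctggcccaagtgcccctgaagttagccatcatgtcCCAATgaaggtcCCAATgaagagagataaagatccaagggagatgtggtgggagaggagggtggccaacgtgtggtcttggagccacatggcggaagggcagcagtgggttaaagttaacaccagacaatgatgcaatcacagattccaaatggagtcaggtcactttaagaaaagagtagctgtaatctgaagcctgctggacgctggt
Gper1: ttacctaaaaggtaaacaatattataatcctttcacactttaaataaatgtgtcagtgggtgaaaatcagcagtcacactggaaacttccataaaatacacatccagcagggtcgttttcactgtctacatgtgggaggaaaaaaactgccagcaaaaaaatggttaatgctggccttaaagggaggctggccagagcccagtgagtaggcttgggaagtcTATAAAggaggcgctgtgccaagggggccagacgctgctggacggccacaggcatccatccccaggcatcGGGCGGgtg
Il33 first start: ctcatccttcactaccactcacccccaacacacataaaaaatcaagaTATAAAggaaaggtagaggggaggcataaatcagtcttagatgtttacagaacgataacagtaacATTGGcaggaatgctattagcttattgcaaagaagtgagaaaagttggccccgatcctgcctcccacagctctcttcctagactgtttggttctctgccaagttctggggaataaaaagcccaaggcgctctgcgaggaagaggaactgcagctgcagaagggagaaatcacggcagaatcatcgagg
Il33 second start: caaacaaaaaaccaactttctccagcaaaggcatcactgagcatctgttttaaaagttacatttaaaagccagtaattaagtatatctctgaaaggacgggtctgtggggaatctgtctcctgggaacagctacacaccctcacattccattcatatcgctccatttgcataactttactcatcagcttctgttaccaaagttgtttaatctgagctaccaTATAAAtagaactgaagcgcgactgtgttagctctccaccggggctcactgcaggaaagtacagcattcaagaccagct

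Serpinf1 held 3 CCAAT matches and none of the other 5 motifs. Gper1 and the second Il33 window each had TATAAA with its first base at position -29 from the start, and the first Il33 window had TATAAA at -203. None of the 4 windows shown held the E-box, the cyclic AMP response element or the AP-1 site. Windows were found for 28 of the 33 genes called higher (40 windows), and their motif shares are set beside those of all 17168 windows of tested genes. TATAAA was in 15% of the 40 against 9.2% of all, CCAAT in 35% against 37.3%, and GGGCGG in 52.5% against 55.1%. CACGTG was in 10% against 8.92%, TGACGTCA in 5% against 2.66%, and TGAGTCA in 2.5% against 4.39%. A match is a run of letters and not a bound site.

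Several called genes encode secreted or extracellular matrix proteins. Col1a1, a chain of type I collagen, measured 5.92, 11.5, 15.7 and 6.64 CPM in WT cTEC libraries 1 to 4, 81.6 CPM in KO cTEC, 8.36 and 13.8 CPM in WT mTEC libraries 1 and 2, and 111 CPM in KO mTEC. It was the called gene with the largest change in mTECs after Gper1, and its log2 change was 3.17 ± 0.36 (SE; adjusted p = 0.0186). Fbln1 and Efemp2, which encode the elastic fibre proteins fibulin-1 and fibulin-4, rose by 1.94 ± 0.18 log2 units (SE; adjusted p = 0.0129) and 1.45 ± 0.18 log2 units (SE; adjusted p = 0.0307). Islr, a leucine-rich repeat protein of the mesenchyme, rose by 2.37 ± 0.26 log2 units (SE; adjusted p = 0.0186).

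Nbl1, a secreted antagonist of bone morphogenetic proteins, measured 61.6, 60.6, 60.8 and 65.2 CPM in WT cTEC libraries 1 to 4, 189.6 CPM in KO cTEC, 15.6 and 12.4 CPM in WT mTEC libraries 1 and 2, and 47.4 CPM in KO mTEC. All 4 WT cTEC libraries lay within 60.6 to 65.2 CPM, and the log2 change was 1.68 ± 0.13 (SE; adjusted p = 0.00876). Ergic1, Ppic and Rcn3 also rose. The log2 changes were for Ergic1, a gene of the compartment between endoplasmic reticulum and Golgi (1.32 ± 0.18), Ppic, which encodes cyclophilin C (1.54 ± 0.22), and Rcn3, a calcium-binding protein of the endoplasmic reticulum (0.98 ± 0.13). Their adjusted p-values were 0.0375, 0.0449 and 0.0415.

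As whole lists, matrix genes held members on both sides of WT. Of 29 tested collagens, 9 (31%) lay above WT in both populations and 5 (17.2%) below, 1 was called, and the median was 0.00. Of 13 small leucine-rich proteoglycans, which bind collagen fibrils, 4 (30.8%) lay above and 1 (7.69%) below with a median of 0.72, and none was called. The shares of all tested genes were 16.9% above and 17.7% below. Prelp ran from 144 to 208 CPM in WT cTECs and 440.3 in KO cTEC, and from 2.59 to 6.27 CPM in WT mTECs against 34.3 in KO mTEC, and Lum from 4.50 to 18.0 CPM in WT cTECs and 31.3 in KO cTEC, and from 3.70 to 6.22 CPM in WT mTECs against 68.1 in KO mTEC. Thbs2, a matricellular thrombospondin, missed the threshold at 2.40 ± 0.34 log2 units (SE; adjusted p = 0.0514), as did Serpine2, a secreted serpin, at 2.46 ± 0.35 log2 units (SE; adjusted p = 0.0564).

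Some fibroblast markers stood high beside these matrix genes. Of 14 such markers, Col1a1 among them, 6 (42.9%) lay above WT in both populations, none below and 8 on neither side. Over all tested genes 16.9% lay above. The median of the 14 was 2.54 in the additive fit, 1.11 in cTECs and 1.89 in mTECs. Col1a2 ran from 6.20 to 23.6 CPM in WT cTECs and 76.6 in KO cTEC, and from 1.95 to 5.45 CPM in WT mTECs against 93.6 in KO mTEC. Pdgfra, a mesenchymal growth factor receptor, ran from 0.959 to 3.92 CPM in WT cTECs and 7.33 in KO cTEC, and from 0.740 to 1.43 CPM in WT mTECs against 13.4 in KO mTEC. Dcn, a proteoglycan of fibroblasts, was not above WT in cTECs, with 557 to 813 CPM in WT and 573 CPM in KO cTEC, while it was 129 and 99.1 CPM in WT mTECs and 576 CPM in KO mTEC. Thy1 and Twist1 were at 0.321 and 0.836 CPM in KO cTEC. The part of fibroblast RNA in the rise of Col1a1 and the other matrix genes was not tested. Of 12 endothelial markers 6 lay above WT in both populations and none below, yet their sum was 59.1 to 76.9 CPM in WT cTECs, 43.7 in KO cTEC, 179 and 94.4 in WT mTECs and 274 in KO mTEC. Cldn5, an endothelial tight junction gene, was 0.221 to 1.26 CPM in WT cTECs and 2.83 CPM in KO cTEC.

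Genes of epithelial identity were also among those that rose. Ackr4, an atypical receptor that removes the chemokines CCL19, CCL21 and CCL25 and marks cortical epithelium, measured 146, 153, 189 and 168 CPM in WT cTEC libraries 1 to 4, 776 CPM in KO cTEC, 10.7 and 10.8 CPM in WT mTEC libraries 1 and 2, and 27.6 CPM in KO mTEC, and rose by 1.88 ± 0.19 log2 units (SE; adjusted p = 0.015). Pax1, a transcription factor of the pharyngeal pouch from which the thymus forms, measured 384, 327, 307 and 329 CPM in WT cTEC libraries 1 to 4, 734 CPM in KO cTEC, 36.3 and 44.1 CPM in WT mTEC libraries 1 and 2, and 81.7 CPM in KO mTEC, and rose by 1.08 ± 0.14 log2 units (SE; adjusted p = 0.0369). Bcam, a laminin receptor, rose by 1.35 ± 0.16 log2 units (SE; adjusted p = 0.0275), and was 1 of the called genes with a larger value in mTECs (1.04 ± 0.17 in cTECs and 1.70 ± 0.19 in mTECs), a difference with an adjusted p of 0.218. Both Ackr4 and Pax1 were far lower in mTECs than in cTECs of WT, and the KO mTEC library stayed below every WT cTEC library for both.

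Of 14 pan-epithelial genes, 6 (42.9%) lay above WT in both populations and none below (median 0.24), and 1, Pax1, was called. Foxn1, the master regulator of thymic epithelium, ran from 104 to 147 CPM in WT cTECs and 528 in KO cTEC, and from 64.1 to 66.8 CPM in WT mTECs against 78.0 in KO mTEC, with 1.35 ± 0.32 log2 units (SE; adjusted p = 0.105). Krt8 and Krt18, the keratins of simple epithelium, had log2 values of 0.99 ± 0.18 (SE; adjusted p = 0.0704) and 0.65 ± 0.15 (SE; adjusted p = 0.101). Of 19 cortical markers, 7 (36.8%) lay above and 1 (5.26%) below, and Ackr4 was the 1 called. Psmb11, the thymoproteasome subunit, ran from 146 to 399 CPM in WT cTECs and 751 in KO cTEC, and from 10.1 to 12.8 CPM in WT mTECs against 26.5 in KO mTEC. Bmp4, a growth factor that supports Foxn1, ran from 3.35 to 11.1 CPM in WT cTECs and 61.1 in KO cTEC, and from 1.05 to 1.27 CPM in WT mTECs against 5.42 in KO mTEC, with 2.84 ± 0.43 log2 units (SE; adjusted p = 0.0573). Of 18 mature mTEC genes none lay above and 5 (27.8%) below, with a median of -4.61 in cTECs and -0.04 in mTECs. Of 14 genes of immature or junctional mTECs 1 lay above and 4 (28.6%) below, with medians of -1.455 in cTECs and 0.06 in mTECs. Of 15 genes of the keratinising stage after Aire none lay above and 1 (6.67%) below, with -1.73 in cTECs and 0.27 in mTECs. Of 16 tuft genes none lay above and 9 (56.2%) below, with -8.31 in cTECs and -0.23 in mTECs. Over all tested genes 16.9% lay above and 17.7% below. Hepacam2, a tuft cell gene, ran from 120.5 to 132 CPM in WT cTECs and 0 in KO cTEC, and from 117 to 145 CPM in WT mTECs against 86.4 in KO mTEC, and all 16 tuft genes differed in KO effect between populations at an adjusted p under 0.05, against 6.81% of all tested genes. No gene of these 4 lists was called.

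Several called genes serve metabolism. Psat1, an enzyme of serine synthesis, measured 220.3, 130.0, 187 and 125 CPM in WT cTEC libraries 1 to 4, 858 CPM in KO cTEC, 31.3 and 24.1 CPM in WT mTEC libraries 1 and 2, and 70.1 CPM in KO mTEC, and rose by 1.95 ± 0.27 log2 units (SE; adjusted p = 0.0449). Adhfe1, a mitochondrial enzyme that converts hydroxybutyrate, rose by 2.19 ± 0.26 log2 units (SE; adjusted p = 0.0242), and Gstm2, a glutathione transferase with close relatives that may share its reads, by 1.61 ± 0.16 log2 units (SE; adjusted p = 0.015). Pla2g7, which inactivates platelet-activating factor, rose by 1.88 ± 0.25 log2 units (SE; adjusted p = 0.0391). Klf15, a transcription factor of amino acid and lipid metabolism, rose by 1.63 ± 0.17 log2 units (SE; adjusted p = 0.015).

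Alas2, the erythroid enzyme that starts haem synthesis, measured 7.06, 4.94, 6.68 and 4.50 CPM in WT cTEC libraries 1 to 4, 27.6 CPM in KO cTEC, 12.7 and 11.6 CPM in WT mTEC libraries 1 and 2, and 58.0 CPM in KO mTEC, and rose by 2.25 ± 0.23 log2 units (SE; adjusted p = 0.015). It stood beside the haemoglobin genes, whose near-identical copies share reads. Hbb-bs ran from 5.28 to 35.3 CPM in WT cTECs and 183 in KO cTEC, and from 8.30 to 28.5 CPM in WT mTECs against 419 in KO mTEC, with 4.03 ± 0.72 log2 units (SE; adjusted p = 0.0773). Hba-a1 and Hba-a2 had log2 values of 4.44 ± 0.72 (SE; adjusted p = 0.0702) and 4.28 ± 0.80 (SE; adjusted p = 0.0823). Of 7 tested erythroid markers 4 (57.1%) lay above WT in both populations, against 16.9% of all tested genes, and none below. Slc4a1, the red cell anion exchanger, was at 0 in KO cTEC and in 3 of 4 WT cTEC libraries, and Klf1 at 0.129 CPM in KO cTEC. The part of red cell RNA in the rise of Alas2 was not tested.

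Tnfrsf19, an orphan receptor of the tumour necrosis factor receptor family, measured 15.6, 22.3, 29.2 and 24.0 CPM in WT cTEC libraries 1 to 4, 364 CPM in KO cTEC, 6.33 and 5.76 CPM in WT mTEC libraries 1 and 2, and 27.7 CPM in KO mTEC, and rose by 3.32 ± 0.35 log2 units (SE; adjusted p = 0.015). Nkd1, an inhibitor of Wnt signalling, rose by 1.95 ± 0.25 log2 units (SE; adjusted p = 0.0341), and Tspan12, a tetraspanin that promotes Norrin signalling through a Frizzled receptor, by 1.53 ± 0.19 log2 units (SE; adjusted p = 0.033). Of 46 tested Wnt pathway genes 7 lay above WT in both populations and 5 below, and Nkd1 was the 1 called. These shares, 15.2% and 10.9%, are under the 16.9% and 17.7% of all tested genes. Glrb, Gpm6b and Palm also rose. The log2 changes were for Glrb, a glycine receptor subunit (2.89 ± 0.41), Gpm6b, a membrane glycoprotein of the proteolipid family (2.12 ± 0.23), and Palm, which encodes paralemmin (1.47 ± 0.20). Their adjusted p-values were 0.0481, 0.0172 and 0.0375. Zfp385b, a zinc finger gene, rose by 2.47 ± 0.23 log2 units (SE; adjusted p = 0.0129), and Trim16, a tripartite motif gene, by 2.40 ± 0.33 log2 units (SE; adjusted p = 0.0446).

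No target or brake of growth factor signalling through ERK was called. Of 17 tested, 5 (29.4%) lay above WT in both populations, against 16.9% of all tested genes, and none below, with a median of 0.26. Etv5 ran from 6.86 to 12.7 CPM in WT cTECs and 128 in KO cTEC, and from 2.17 to 7.15 CPM in WT mTECs against 10.0 in KO mTEC. Etv4 and Spry4 had log2 values of 3.21 ± 0.87 (SE; adjusted p = 0.131) and 1.67 ± 0.80 (SE; adjusted p = 0.306). None of the 23 tested immediate-early genes lay beyond WT in both populations. In Notch signalling 3 of 19 (15.8%) lay above and 2 (10.5%) below, shares under the 16.9% and 17.7% of all tested genes. Among the 3 above were Hey1 at 1.58 ± 0.30 log2 units (SE; adjusted p = 0.0745) and Hes1 at 0.66 ± 0.19 log2 units (SE; adjusted p = 0.138).

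Most listed cell cycle genes lay above WT in both populations, and 1 of them, Mcm5, was called. Cdk2, the kinase of S-phase entry, is in neither list and was also called. It measured 32.4, 30.3, 27.3 and 29.9 CPM in WT cTEC libraries 1 to 4, 65.2 CPM in KO cTEC, 31.6 and 31.3 CPM in WT mTEC libraries 1 and 2, and 57.3 CPM in KO mTEC, and rose by 1.01 ± 0.14 log2 units (SE; adjusted p = 0.0483). Mcm5, a subunit of the replicative helicase, measured 23.5, 21.2, 18.5 and 24.4 CPM in WT cTEC libraries 1 to 4, 57.3 CPM in KO cTEC, 20.1 and 18.5 CPM in WT mTEC libraries 1 and 2, and 46.5 CPM in KO mTEC, and rose by 1.33 ± 0.17 log2 units (SE; adjusted p = 0.033). Noc2l, a nucleolar gene, rose by 1.03 ± 0.13 log2 units (SE; adjusted p = 0.0341). Of 27 genes of S phase and DNA replication 22 lay above WT in both populations and none below, with a median of 0.91. Of 25 genes of G2 and mitosis 24 lay above and none below, with a median of 1.86. Over all tested genes the share above was 16.9%.

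The mitotic genes varied among WT libraries, and none of the 25 was called, the lowest adjusted p being 0.0743. Cdc20, which switches on the ubiquitin ligase of anaphase, ran from 7.51 to 24.8 CPM in WT cTECs and 136 in KO cTEC, and from 15.6 to 27.5 CPM in WT mTECs against 67.1 in KO mTEC. Its log2 value was 2.68 ± 0.50 (SE; adjusted p = 0.0785). Birc5, which encodes survivin, had 2.08 ± 0.39 log2 units (SE; adjusted p = 0.0743), and Bub1b, a spindle checkpoint kinase, 2.27 ± 0.56 log2 units (SE; adjusted p = 0.111). Summed over the G2 and mitosis list the level was 155 to 515 CPM in WT cTECs, 1552 in KO cTEC, 639.7 and 801 in WT mTECs and 1282 in KO mTEC. WT cTEC library 1 was the highest of its group. The sum over S-phase genes was 448 to 638 CPM in WT cTECs, 987 in KO cTEC, 617 and 743 in WT mTECs and 1021 in KO mTEC.

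Nuclear genes of ribosomes and respiration held shared genes above WT alone, and mitochondrial DNA held them below WT alone. Of 26 genes of cytosolic ribosomal proteins 22 (84.6%) lay above WT in both populations, none lay below and none was called, with a median of 0.70. Rpl32 ran from 57.5 to 152 CPM in WT cTECs and 282 in KO cTEC, and from 99.6 to 124 CPM in WT mTECs against 259 in KO mTEC. Ribosomal genes have many processed pseudogenes, so single values are uncertain. Of 32 nuclear genes of oxidative phosphorylation 18 (56.2%) lay above and none below, with a median of 0.23. The share above was 16.9% of all tested genes. Atp5a1 and Atp5b, subunits of the ATP synthase, had log2 values of 0.81 ± 0.13 (SE; adjusted p = 0.0607) and 0.73 ± 0.14 (SE; adjusted p = 0.0743).

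Of the 13 protein genes of mitochondrial DNA none lay above WT in both populations and 9 (69.2%) below, with a median of -0.98 and none called. COX1, a subunit of cytochrome oxidase, ran from 2859 to 4970.5 CPM in WT cTECs and 1755 in KO cTEC, and from 7969 to 9952 CPM in WT mTECs against 5116 in KO mTEC, with -0.98 ± 0.26 log2 units (SE; adjusted p = 0.125). ND1, a subunit of complex I, had -1.06 ± 0.26 log2 units (SE; adjusted p = 0.111). Mitochondrially encoded genes took 0.922 to 1.42% of counts in WT cTECs and 0.534% in KO cTEC, and 2.35 to 2.5% in WT mTECs and 1.42% in KO mTEC. Of 25 tested genes of fatty acid oxidation 13 (52%) lay above and 2 (8%) below, against 16.9% and 17.7% of all tested genes. Acaa2, the last enzyme of the mitochondrial spiral, ran from 101 to 115 CPM in WT cTECs and 276 in KO cTEC, and from 23.4 to 37.1 CPM in WT mTECs against 60.4 in KO mTEC, with 1.18 ± 0.18 log2 units (SE; adjusted p = 0.0573), and Acsl4, an acyl-CoA synthetase, had -0.98 ± 0.30 log2 units (SE; adjusted p = 0.159).

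**Figure D3:**
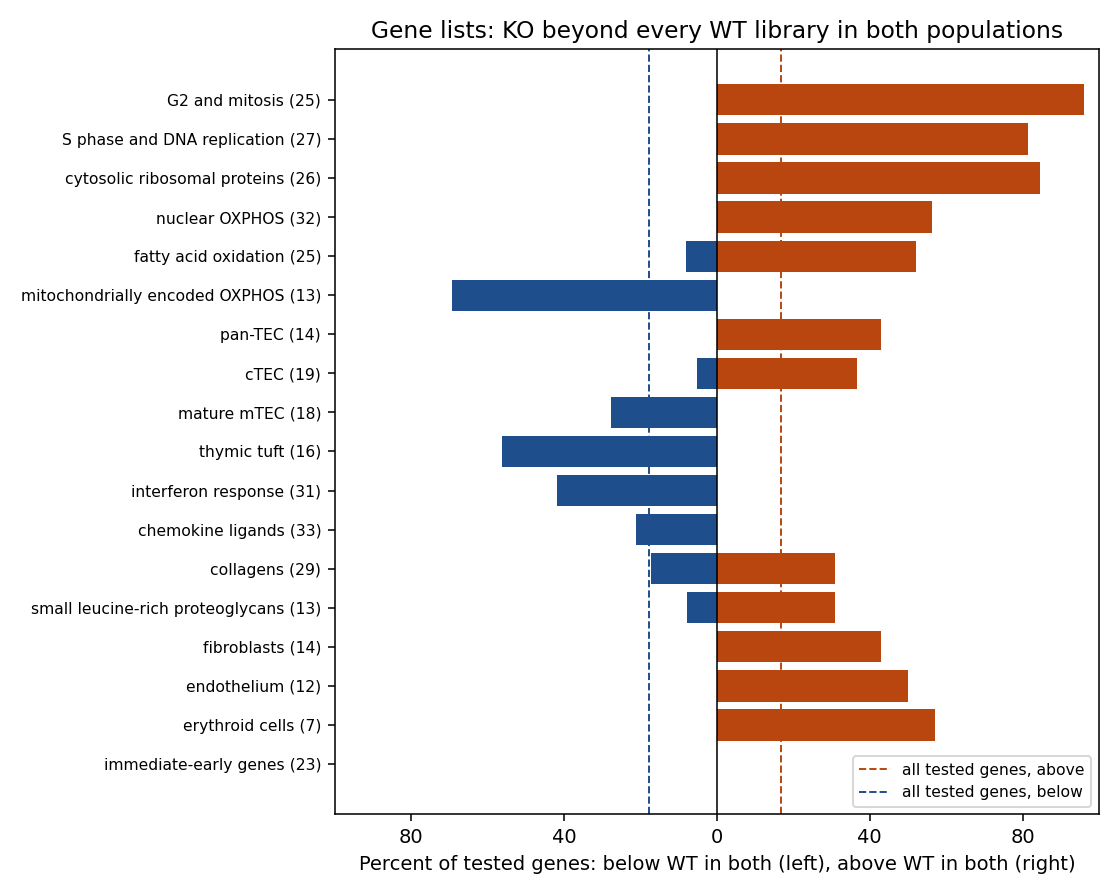
Percent of the tested genes of 18 lists (number tested in brackets) that lay above every WT library in both populations (right) or below (left). Dashed lines mark the 16.9% and 17.7% of all tested genes, and bars for mitosis, S phase and ribosomal proteins reach over 80% on the right while mitochondrially encoded genes reach 69.2% on the left.

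The 4 genes that fell were Tmem245, Ddx60, Snx29 and Atrnl1. Tmem245, a multi-pass membrane protein, measured 85.2, 106, 91.0 and 92.9 CPM in WT cTEC libraries 1 to 4, 28.1 CPM in KO cTEC, 66.8 and 58.9 CPM in WT mTEC libraries 1 and 2, and 28.4 CPM in KO mTEC, and fell with a log2 change of -1.46 ± 0.19 (SE; adjusted p = 0.0375). Ddx60, an interferon-induced helicase of the antiviral response, measured 134, 151, 153 and 174 CPM in WT cTEC libraries 1 to 4, 43.8 CPM in KO cTEC, 98.8 and 93.1 CPM in WT mTEC libraries 1 and 2, and 43.9 CPM in KO mTEC, with -1.48 ± 0.20 log2 units (SE; adjusted p = 0.0415). Snx29, a sorting nexin, measured 132, 114, 120.4 and 106 CPM in WT cTEC libraries 1 to 4, 38.9 CPM in KO cTEC, 208 and 196 CPM in WT mTEC libraries 1 and 2, and 96.5 CPM in KO mTEC, with -1.35 ± 0.18 log2 units (SE; adjusted p = 0.0375). Atrnl1, a gene related to attractin, measured 51.3, 57.5, 56.5 and 47.7 CPM in WT cTEC libraries 1 to 4, 17.2 CPM in KO cTEC, 65.0 and 61.2 CPM in WT mTEC libraries 1 and 2, and 30.6 CPM in KO mTEC, with -1.35 ± 0.19 log2 units (SE; adjusted p = 0.0481). All 4 KO levels were at 0.287 to 0.329 times the WT mean in cTECs and 0.451 to 0.485 times in mTECs. No difference in size between populations passed the test for these 4, with adjusted p-values of 0.27 to 0.361, which does not show that the drops were equal.

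Since only 4 lower genes were called, 8 shared genes that were lower in KO and not called are given beside them. They have an average log2 CPM of at least 3 and the largest values by the smaller of the cTEC and mTEC changes. Their log2 values, -4.49 to -1.65, were larger in size than those of the 4 called genes, and so were their SEs, at 0.43 to 1.50 against 0.18 to 0.20. Prss2, a pancreatic trypsinogen from a family of close copies, ran from 6.35 to 56.3 CPM in WT cTECs and 0 in KO cTEC, and from 58.6 to 67.2 CPM in WT mTECs against 7.14 in KO mTEC. Stxbp5l, a regulator of vesicle release, ran from 4.42 to 18.0 CPM in WT cTECs and 0 in KO cTEC, and from 29.9 to 31.4 CPM in WT mTECs against 4.07 in KO mTEC. Klf12, a transcription factor, ran from 8.99 to 12.4 CPM in WT cTECs and 0.193 in KO cTEC, and from 19.8 to 23.6 CPM in WT mTECs against 4.88 in KO mTEC, and its KO effect differed between populations by 3.65 ± 0.69 log2 units (SE; adjusted p = 0.0161). Gbp11, Scg2, Sec14l4, Dnah11 and Pdk4 had log2 values of -3.58 ± 0.71, -3.30 ± 0.66, -2.82 ± 0.57, -2.36 ± 0.47 and -1.65 ± 0.43, with adjusted p-values from 0.0812 to 0.12. Pdk4, which restrains the entry of pyruvate into mitochondria, was the gene of these 8 whose change was closest in both populations, at -1.62 ± 0.57 in cTECs and -1.71 ± 0.67 in mTECs.

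Interferon-response genes lay below WT more often than above: 13 of 31 below, none above and none called, with a median of -0.64, against 17.7% below over all tested genes. Taken alone, their median was -1.06 in cTECs and -0.22 in mTECs. Their sum was 6815.5 to 7233.7 CPM in WT cTECs and 3936.9 in KO cTEC. In mTECs the KO sum, 4904 CPM, lay between the WT sums of 6138 and 4781 CPM. Oas3, a sensor of double-stranded RNA, ran from 32.2 to 42.8 CPM in WT cTECs and 4.50 in KO cTEC, and from 27.9 to 37.1 CPM in WT mTECs against 17.8 in KO mTEC. Ifi44 and Mx2 had -1.01 ± 0.29 log2 units (SE; adjusted p = 0.141) and -1.05 ± 0.42 log2 units (SE; adjusted p = 0.234). Gbp7 had -0.61 ± 0.23 in cTECs and -0.62 ± 0.25 in mTECs, and -0.61 ± 0.16 log2 units (SE; adjusted p = 0.124) over both. Of 33 chemokine ligands 7 (21.2%) lay below, none above and none called. Their median was -1.37 over both populations, but -3.44 in cTECs and 0.009 in mTECs. Of 26 NF-kB and inflammatory genes 5 (19.2%) lay below and none above, with medians of -1.27 in cTECs and -0.02 in mTECs. Both shares below were near the 17.7% of all tested genes.

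The BCL-2 family held no called gene. Of 7 tested pro-survival members Mcl1 and Bcl2l2 (28.6%) lay below WT in both populations and none above. Of 12 pro-death members 2 (16.7%) lay above and 5 (41.7%) below. Bok, a pore-forming member, ran from 74.9 to 126 CPM in WT cTECs and 217 in KO cTEC, and from 93.6 to 97.9 CPM in WT mTECs against 133 in KO mTEC, with 0.79 ± 0.21 log2 units (SE; adjusted p = 0.125), and Bmf, a BH3-only member, from 3.28 to 8.28 CPM in WT cTECs and 1.48 in KO cTEC, and from 7.66 to 8.80 CPM in WT mTECs against 4.88 in KO mTEC, with -1.39 ± 0.57 log2 units (SE; adjusted p = 0.244). Of 24 p53 targets 6 (25%) lay above and 2 (8.33%) below, with a median of -0.10, and none was called. Over all tested genes the shares were 16.9% above and 17.7% below.

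Unc119 was the 1 called gene whose KO effect also differed in size between populations. It encodes a chaperone of lipid-modified proteins (Entrez 22248, chromosome 11, 78343495 to 78349164). Its level was 86.3, 64.8, 73.4 and 72.7 CPM in WT cTEC libraries 1 to 4, 1005 CPM in KO cTEC, 29.5 and 22.2 CPM in WT mTEC libraries 1 and 2, and 99.9 CPM in KO mTEC. The KO libraries were at 13.5 times the WT mean in cTECs and 3.86 times in mTECs. The log2 change over both was 3.07 ± 0.32 (SE; adjusted p = 0.015), and the mTEC effect minus the cTEC effect was -1.81 ± 0.35 (SE; adjusted p = 0.0179). Over all tested genes, 1236 (6.81%) differed in KO effect between populations, 522 of them shared genes.

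Unc119 is the gene next to Foxn1 on chromosome 11, and its neighbours were looked at after its values were seen. Of the 37 tested genes that start within 500 kb of Foxn1, 12 (32.4%) lay above WT in both populations and 4 (10.8%) below. Unc119, the 1 called, and Foxn1 are among the 12, and since Unc119 prompted the choice of window, nothing is read from that count. Within 5 Mb of Foxn1 the shares were 17.6% above and 18.3% below of 153 tested genes, near the 16.9% and 17.7% of all tested genes. On the side of Unc119, Pigs, Aldoc, Spag5, Rab34, Traf4, Dhrs13 and a gene known by a clone name lay above and Rskr and Pipox below, and on the other side Slc46a1, Poldip2 and Ift20 lay above and Nlk and Ccnq below. Aldoc, a glycolytic aldolase, ran from 5.07 to 9.44 CPM in WT cTECs and 27.6 in KO cTEC, and from 8.67 to 9.08 CPM in WT mTECs against 17.4 in KO mTEC, and Spag5, a spindle gene, from 3.31 to 8.13 CPM in WT cTECs and 27.1 in KO cTEC, and from 11.3 to 13.4 CPM in WT mTECs against 20.2 in KO mTEC. Slc13a2, the coding gene next to Foxn1 on the other side, did not lie beyond WT in both. The labels do not say how the deletion was made or whether any transgene is carried, and the part of position in these values was not tested.

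**Figure D4:**
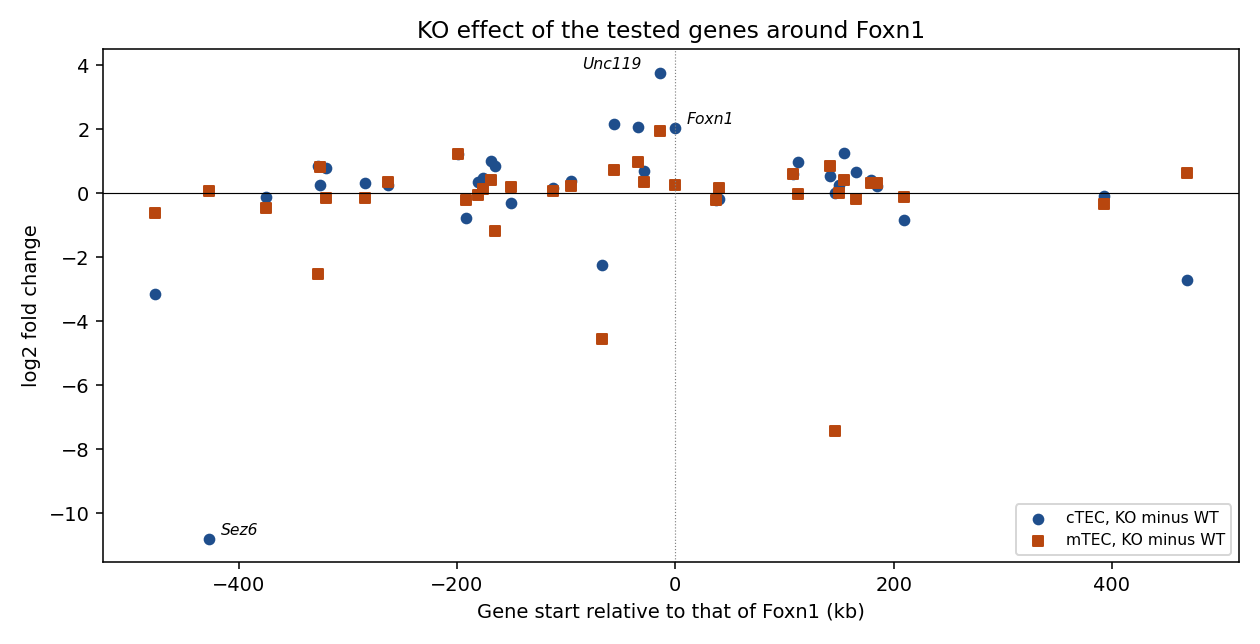
KO minus WT log2 fold change in cTECs (circles) and mTECs (squares) of the 37 tested genes around Foxn1, by distance of gene start from that of Foxn1 in kb. Unc119 stands highest in both populations, at 3.76 in cTECs and 1.95 in mTECs, and Sez6, with a count of 0 in KO cTEC, is the lowest point.

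Around the deleted gene the shares were near those of all tested genes. Of 159 tested genes that start within 5 Mb of Mcl1 on chromosome 3, 23 (14.5%) lay above WT in both populations and 27 (17%) below, and none was called by edgeR. Selenbp1, a selenium-binding protein and the nearest of these to the threshold by adjusted p, ran from 16.0 to 26.2 CPM in WT cTECs and 46.7 in KO cTEC, and from 6.88 to 8.40 CPM in WT mTECs against 19.3 in KO mTEC, with 1.25 ± 0.23 log2 units (SE; adjusted p = 0.0737).

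The calls rest on small groups. Where a library was left out, the counts given here are of all genes called in that fit, and some lie outside the 37. At the threshold, Glrb (0.0481) and Cdk2 (0.0483) were the last inside, and Thbs2 (0.0514) and Serpine2 (0.0564) the first outside, by adjusted p. Leaving out WT cTEC library 1, 2, 3 or 4 left 15, 6, 4 and 11 called genes, and leaving out WT mTEC library 1 or 2 left 15 and 8, all of them higher in KO. Abat, Nbl1 and Serpinf1 stayed called when any 1 of the 6 WT libraries was left out, with adjusted p-values up to 0.0482, and the other 34 lost the call in at least 1 of these fits. Without the KO cTEC library no gene was called by edgeR, with 1489 at an unadjusted p under 0.05, and without the KO mTEC library 3233 were, which describes the cTEC change alone. On the same 8 libraries DESeq2 called 794 genes higher and 714 lower, and limma-voom 188 higher and 21 lower, each with the 37 genes among them.

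**Figure D5:**
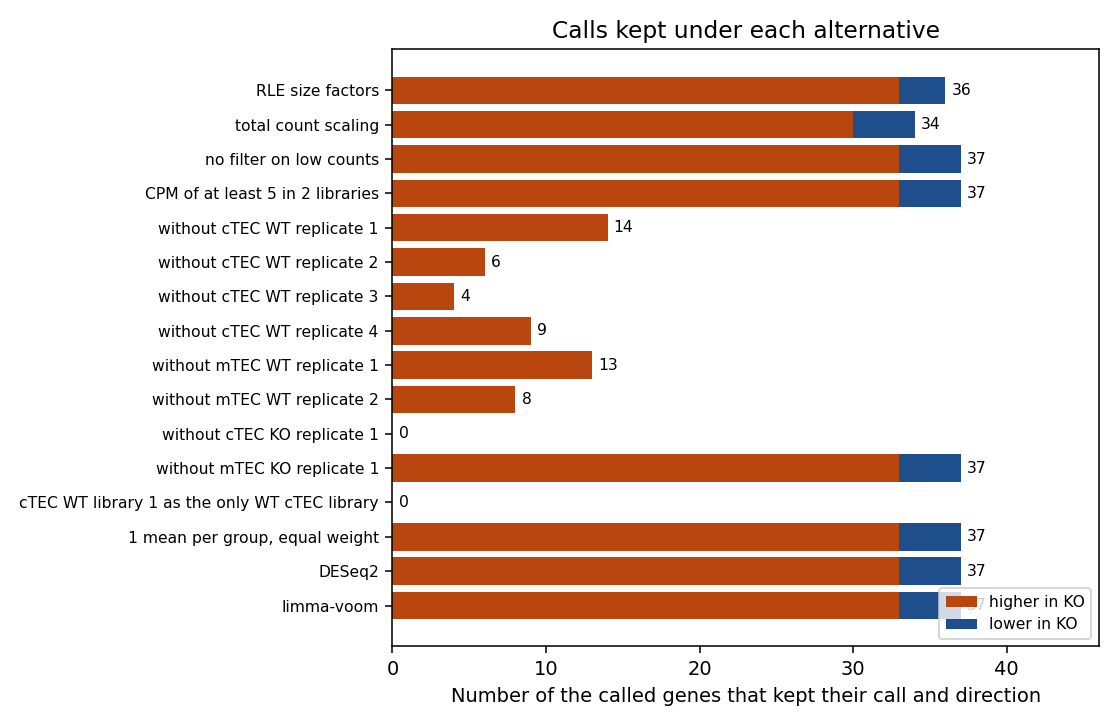
Number of the 37 called genes that kept call and direction under each of 16 alternative fits (bars; orange higher, blue lower in KO). Leaving out 1 WT library kept 4 to 14 of them, and DESeq2 and limma-voom kept all 37.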

How the data were processed

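Polyadenylated RNA of thymic epithelial cell pellets was amplified with a low-input full-length cDNA kit, tagmented and sequenced as paired ends, per the labels' protocols. The deposited values are raw counts per gene, made by the authors with featureCounts on mm10, per the submitters' processing notes. For the aligner, annotation, strand setting and versions, nothing is given in the sources used here. A further deposited table covers the series, but its 8 sample columns match no label, and it was left aside.

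Symbols and positions came from a RefSeq gene table (GRCm38.p6), which matched 25275 of 27179 identifiers (93%). Identifiers without a symbol held 0.887 to 1.68% of counts and were tested but not named. Genes with 1 CPM or more in 2 or more of the 8 libraries (18163) were scaled by TMM and tested two-sided in edgeR 4.0.16 (robust quasi-likelihood F test, R 4.3.3). The additive model of population and genotype had 5 residual degrees of freedom. A second model, with a mean for each group and 4 residual degrees of freedom, gave each population's KO effect and their difference, with the spread taken from WT libraries. Adjusted p-values are Benjamini-Hochberg over all tested genes, and a gene was called under 0.05. The SE is the absolute log2 change over the square root of F. Low depth limits genes with few counts, and reads carry no molecular identifiers. The additive fit was tried on simulated counts with equal folds in both populations, so KO effects unequal between them were not covered. The rule for shared genes was checked on a small constructed set of values.

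The members, the 54 gene lists and the rules were chosen with earlier results of these data known. Named genes were Mcl1, the 4 genes described first, per direction the 12 called shared genes with an average log2 CPM of at least 3 and the largest smaller-of-the-two change, filled up with uncalled ones where fewer were called, and up to 4 shared genes per list. The other called genes, the genes just outside the threshold, the markers named in the paragraphs on other cell types and the neighbours of Foxn1 were chosen after their values were seen. Alternatives were RLE and total-count scaling, other filters, DESeq2 1.42.0, limma-voom (limma 3.58.1), 1 mean per group, and leaving out libraries. The labels' numbers 1 and 2 recur in the WT groups only.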

Additional observations from a re-analysis of the deposited data

Results flagged for a closer look

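Among the 97 genes tested for the text, 11 had a KO effect that differed between populations by edgeR at an adjusted p under 0.05. The mTEC effect minus the cTEC effect was -1.81 ± 0.35 log2 units (SE; adjusted p = 0.0179) for Unc119, the 1 called gene among them, -1.78 ± 0.33 log2 units (SE; adjusted p = 0.0156) for its neighbour Foxn1 and -1.93 ± 0.36 log2 units (SE; adjusted p = 0.0158) for Thbs2, each higher above WT in cTECs. Below WT, the difference was 3.96 ± 0.50 log2 units (SE; adjusted p = 0.00277) for Mcl1, 3.65 ± 0.69 log2 units (SE; adjusted p = 0.0161) for Klf12, 2.16 ± 0.44 log2 units (SE; adjusted p = 0.0236) for Oas3 and 6.08 ± 0.47 log2 units (SE; adjusted p = 0.000398) for Il1rn, each lower in KO cTEC than in KO mTEC relative to WT. The tuft genes Gnb3, Hepacam2, Rgs13 and Sh2d6 differed by 7.46 ± 0.91 log2 units (SE; adjusted p = 0.00233), 13.41 ± 0.63 log2 units (SE; adjusted p = 0.000154), 13.89 ± 1.23 log2 units (SE; adjusted p = 0.000745) and 8.74 ± 0.64 log2 units (SE; adjusted p = 0.000342). Hepacam2 and Rgs13 had no count in KO cTEC, so their fitted values depend on the prior count and are no bound.

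In the group of 4 WT cTEC libraries, a single library lay apart from the others for 4 of the 97 genes. The gap was judged against the range of the group and not against its level, and chance flags about 1 in 20 such groups. Birc5 was 13.1 CPM in library 1 against 5.38 to 6.24 in the others. Hba-a1 and Hba-a2 were 30.6 and 46.4 CPM in library 4 against 3.71 to 8.20 and 5.64 to 11.1 in the others, still below the 198 and 239 CPM of KO cTEC. Hepacam2 was 120.5 CPM in library 3 against 130.3 to 132 in the others, which is close in level.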

How the results depend on the processing

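Among the 37 called genes, 33 kept their call under both scalings, both filters, DESeq2, limma-voom and the fit with 1 mean per group, and 3 of these also without each WT library in turn. Over both populations 33 genes were called higher and 4 lower. Leaving out 1 library at a time, KO libraries included, gave 0 to 947 called higher and 0 to 2286 called lower, both largest without the KO mTEC library. None was called higher without the KO cTEC library, and none lower without that library or any 1 WT library. With WT cTEC library 1 as the only WT cTEC library edgeR called 0 genes in either direction, with 1910 at an unadjusted p under 0.05. Without the filter on low counts 51 were higher and 7 lower, of 24104 tested. DESeq2 called 794 higher and 714 lower, limma-voom 188 and 21, and the average of both populations' effects with 1 mean per group 706 and 1710, and the cause was not tested. DESeq2 gave no adjusted p for 468 genes. The higher genes were 89.2% of calls in the fit reported, 52.7% with DESeq2 and 29.2% with 1 mean per group.

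Shared genes above WT numbered 2623 to 3496 over the scalings, filters and left-out WT libraries, and those below 2705 to 3816. All were within 1.5 times of 3065 and 3208. Leaving out a WT library makes the rule easier to meet, and the stricter filter leaves fewer genes to count. The direction of these changes was thus largely fixed in advance, and no stability is read from them. Genes whose KO effect differed between populations numbered 1205 with RLE and 1189 with total counts, against 1236. Scaling moved the median of all genes by at most 0.016. The median of all 54 lists kept its sign with RLE and that of 53 with total counts, the exception being collagens (-0.02). Interferon genes below WT were 11 with RLE and 17 with total counts, against 13. With 1 library in each KO group, no spread within KO could be measured. No paired analysis was possible because the KO libraries carry no replicate number and only the WT groups share the numbers 1 and 2. Same-numbered WT libraries deviated with a correlation across genes of -0.158 and -0.0579.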

Other observations

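Other gene lists held shared genes in both directions, counted by the same rule. Of 24 genes of the integrated stress response 7 (29.2%) lay above WT in both populations and 3 (12.5%) below, and Psat1 was the 1 called. Of 20 NRF2 targets, the antioxidant genes, 6 (30%) lay above and 2 (10%) below with a median log2 change of 0.04. Of 21 genes of the unfolded protein response 5 (23.8%) lay above and 4 (19%) below. Of 20 genes of mitochondrial fusion, fission and cristae 6 (30%) lay above and 1 (5%) below, with a median of 0.21. Of 25 genes of glycolysis and the hypoxia response 8 (32%) lay above and 4 (16%) below. The shares of all tested genes were 16.9% and 17.7%.

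Genes of epithelial junctions lay below WT in both populations more often than above. Of 22 claudins and tight junction genes 3 lay above and 9 below, with a median of -0.83 and none called. Their summed level was 1085 to 1551 CPM in WT cTECs and 849 CPM in KO cTEC, but 1626 and 1614 CPM in WT mTECs against 1652 CPM in KO mTEC, so the sum lay above WT in mTECs while the median over both populations was negative. Of 22 genes of cholesterol synthesis 1 lay above and 4 below, and of 23 tested imprinted genes 1 lay above and 5 below. Genes of antigen presentation were mostly on neither side: 14 of 16 for MHC class I and 12 of 15 for MHC class II. Over all tested genes the shares were 16.9% above and 17.7% below, and the shares for cholesterol synthesis and imprinted genes below WT were near that.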
